A study of Homo sapiens with 10 samples.

Results

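A knockdown of SMARCA4 was compared with a luciferase control in H1, a widely used human embryonic stem cell line. The comparison took 4 of the 10 libraries of the study, chosen by their labels: 2 with a short hairpin RNA (shRNA) that targets SMARCA4 (shSMARCA4) and 2 with a control hairpin for luciferase (shLUC), a firefly gene that human cells lack. All 14785 rows of the expression table were examined, of which 13808 were genes, 973 transposable element (TE) subfamilies and 4 transfer RNAs. The other 6 libraries, 2 each with shRNAs against MAFK, E2F6 and KDM1A, served as a further reference. Every group was labelled wild type, was grown in mTeSR1 on Matrigel, received virus packaged in 293T cells and was selected with puromycin, so the control shares the delivery and the selection. The study calls its pairs biological duplicates of 1 cell line. The number of hairpins per target and the day of harvest are not given in the sources used here.

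SMARCA4, also called BRG1, is an ATPase that drives the BAF (SWI/SNF) chromatin remodelling complex, which slides or evicts nucleosomes at enhancers and promoters. The form of the complex found in pluripotent cells uses SMARCA4 rather than its paralog SMARCA2 and works at many enhancers bound by the pluripotency factors. Nodal and activin signalling through SMAD proteins helps to maintain human pluripotent cells, and stronger Nodal together with WNT signalling starts the mesendoderm programme, the first step towards mesoderm and endoderm.

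Values are the deposited normalized tag counts, whose distribution is nearly the same in every library, with a median of 594 and totals of 22836548 to 22855295. The read depth is therefore unknown, and in bulk RNA fewer cells of a kind and less RNA per cell cannot be told apart. Changes are differences of mean log2(value + 1), and a row passed the test at a limma adjusted p under 0.05. The SD between replicates over all rows was 0.335 on the log2 scale in shSMARCA4, 0.275 in shLUC and 0.53 in shKDM1A, the widest pair in the shared fit. The rows at 0 numbered 9 to 32 in the 4 libraries compared.

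The knockdown was checked first. The targeted gene, SMARCA4 (ENSG00000127616), lies on the plus strand of chromosome 19 (GRCh38, 10960825 to 11079426). Its normalized tag counts were 1100 and 985 with its own hairpin, and 8086 and 8374 with the control hairpin. Both knockdown libraries were far below the 7576 of the lowest of the other 6 libraries. On the log2 scale the fall was -2.98 (SE 0.14, limma adjusted p 8.55e-05), which left 12.7% of the control mean. Among the 27 BAF subunit genes in the table, SMARCA4 was the 1 that fell. BCL7C, a core accessory subunit, rose from 292 and 246 to 554 and 514 (log2 change 0.99). BICRAL, a subunit of the non-canonical complex, rose from 474 and 408 to 664 and 897 (0.81). With 1 library left out, the rise was 0.87 to 1.11 for BCL7C and 0.59 to 1.03 for BICRAL, and neither is among the genes called stable below. The paralog SMARCA2 had 544 and 532 against 377 and 412 (log2 change 0.45, limma adjusted p 0.162), and the other knockdown libraries held 404 to 632.

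Of all rows, 618 (4.18%) passed the test, 247 higher (1.67%) and 371 lower (2.51%), and 2411 (16.3%) had an unadjusted p under 0.05. Each of the 618 had both shSMARCA4 libraries on the same side of both shLUC libraries, which was also true of 51% of all rows. In the comparison with the mean of the other 3 knockdowns, which uses the same shSMARCA4 libraries, 8.7% of rows passed, among them 546 of the 618 in the same direction (205 higher and 341 lower). In 560 of the 618, both shSMARCA4 libraries lay beyond all 8 other libraries, which was true of 17% of all rows. They were above in 222 (8.62% of all rows) and below in 338 (8.41% of all rows). The calls depended on single libraries. With 1 library left out, 213 (without shSMARCA4 replicate 1), 177 (without shSMARCA4 replicate 2), 116 (without shLUC replicate 1) and 86 (without shLUC replicate 2) of the 618 passed. The number that passed in each of the 4 fits was 75, and none of the 618 changed sign. A gene is described below as stable where it was among those 75.

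The calls were spread unevenly over 61 gene lists, which held 2423 of the genes. Listed genes made up 165 of the calls (6.81% of those genes), and 16 lists had no member past the test. Lists of secreted, surface and cytoskeletal proteins had larger shares than the 4.18% of all rows, such as 23.2% of the collagen and matrix list and 18.3% of the synapse list. The 454 zinc finger genes (0.661%) and the 973 TE rows (0.103%) had smaller shares. No test was made of a list as a whole.

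**Figure D1:**
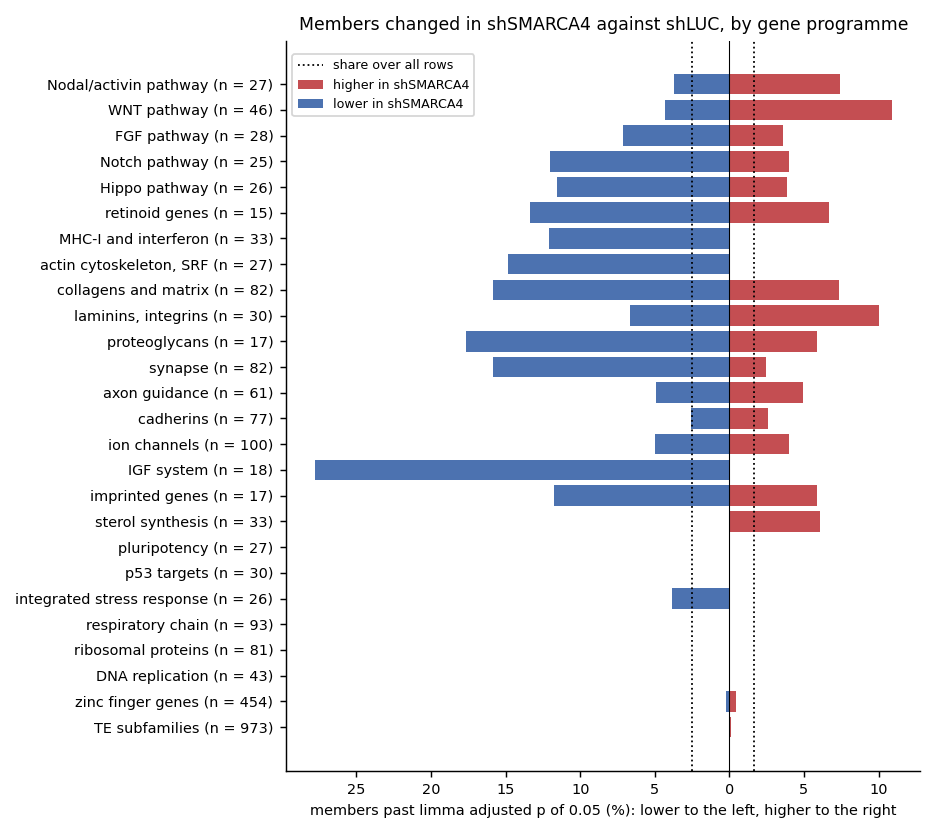
Share of the members of each list that passed the test (limma adjusted p under 0.05) in shSMARCA4 against shLUC, in percent of the members in the table (n in brackets). Bars to the right are members that were higher, bars to the left members that were lower, and dotted lines mark the shares over all rows (1.67% higher and 2.51% lower). The synapse, collagen, actin and IGF lists extend mainly to the left, and the respiratory chain, ribosomal, replication, p53 and pluripotency lists have no bar.

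The identity of the cells was read from markers. All 27 pluripotency genes of the list with a row in the table (of 28 listed) were detected in every library compared, and their summed level was 235985 and 217620 in shSMARCA4, 253717 and 269074 in shLUC and 250104 to 361415 in the other libraries. The summed level in both shSMARCA4 libraries was therefore below that in the 8 others. None of the 27 passed the test by limma, 9 had an unadjusted p under 0.05 (33.3%, beside 16.3% of all rows), and 4 were lower in a fit without the shKDM1A libraries. The median log2 change of the list was -0.22, beside 0.01 over all rows. NANOG, a core pluripotency factor, had 4613 and 3699 against 2512 and 2639 in shLUC (log2 change 0.68, limma adjusted p 0.284). SOX2, its partner, had 4426 and 4748 against 6408 and 6928 (-0.54, limma adjusted p 0.0552). LIN28A, an RNA-binding protein of pluripotent cells, had 30774 in both knockdown libraries and 41812 in both controls (-0.44, limma adjusted p 0.0773). Both shSMARCA4 libraries were above the controls for NANOG and below them for SOX2 and LIN28A. POU5F1, which encodes OCT4, had 51684 and 21308, values that enclose the 35710 of both controls (-0.11, limma adjusted p 0.97).

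Nodal itself was among the largest rises. NODAL (ENSG00000156574, chromosome 10, 70432315 to 70447951, minus strand) reached 2112 and 664 normalized tag counts with the SMARCA4 hairpin, beside 138 and 91 in the controls and 54 to 256 in the other libraries. The knockdown libraries were both above all 8 others, and they also differed from each other. The rise came to 3.39 on the log2 scale (SE 0.57, limma adjusted p 0.0133), with a range of 2.56 to 4.22 when 1 library was left out. The call was then kept in the fit without shSMARCA4 replicate 2 and lost in the other 3 (limma adjusted p up to 0.128).

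Members of the Nodal and activin pathway moved in both directions. Of 27 members in the table, 2 rose and 1 fell (11.1%), and the median log2 change was 0.15. FST, which encodes the activin antagonist follistatin, rose from 362 and 444 to 963 and 960 (log2 change 1.26, limma adjusted p 0.0314). INHBE, which encodes an activin subunit, fell from 57 and 419 to 8 and 9 (-4.04, limma adjusted p 0.025). The control libraries of INHBE lay far apart, and leaving out shLUC replicate 1 gave -5.47, where leaving out shLUC replicate 2 gave -2.61. The Nodal inhibitors that are also targets of the pathway did not pass. LEFTY1 had 1885 and 131 against 125 and 34 in shLUC (log2 change 2.91, limma adjusted p 0.396), LEFTY2 had 396 and 42 against 48 and 24 (1.90, limma adjusted p 0.476), and CER1 had 2354 and 172 against 44 and 21 (4.34, limma adjusted p 0.296). In each of these 3 genes shSMARCA4 replicate 1 was the highest of all 10 libraries. Replicate 2 stood above both controls in LEFTY1 and CER1, and between them in LEFTY2. With the replicate number as a block, LEFTY1 passed (limma adjusted p 0.0363), as did GDF3 (0.0402), a relative of Nodal with 1076 and 443 against 340 and 205 in shLUC.

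Several genes of the mesendoderm were near 0 outside the knockdown. The list had 26 markers, of which 7 had a row in the table. The summed level of those 7 was 12903 and 7996 in shSMARCA4, 5670 and 4870 in shLUC and 2688 to 7656 in the others. Most of the sum in each shSMARCA4 and shLUC library came from KDR, a member that was not near 0 in the controls and did not pass. Goosecoid, SOX17, GATA6 and brachyury, other defining genes of that stage, were listed but were not among the 7 with a row, so they could not be compared. MIXL1, a homeobox factor of the primitive streak, reached 1809 and 132 with the SMARCA4 hairpin, where the controls held 20 and 14 and the rest 9 to 34. The rise was 4.79 on the log2 scale (SE 1.04, limma adjusted p 0.0365), and 2.91 without shSMARCA4 replicate 1 and 6.67 without shSMARCA4 replicate 2. Both libraries were above every other library, yet the size of the rise was set by 1 of them.

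Further genes of this stage had the same order of libraries without passing. EOMES, a T-box factor of mesendoderm, had 2430 and 724 against 14 and 34 in the controls and 0 to 24 elsewhere (log2 change 5.86, limma adjusted p 0.151). FOXA2, a forkhead factor of endoderm, had 792 and 170 against 4 and 2 (6.57, limma adjusted p 0.359). FGF8, a growth factor of the primitive streak, had 782 and 146 against 8 and 6 (5.42, limma adjusted p 0.0773). Both shSMARCA4 libraries were thus above all 8 others in each of these 3 genes. These calls depended on the settings. With a pseudocount of 8 in place of 1, EOMES (limma adjusted p 0.0111), FOXA2 (0.0121) and FGF8 (0.0141) all passed as higher, and 4 of the 7 mesendoderm genes did in place of 1. With the pseudocount of 1, FOXA2 passed without the mean-variance trend (limma adjusted p 0.00674), as did FGF8 (0.00949), and FGF8 also passed without the shKDM1A libraries (0.0235). In a fit of the 4 compared libraries alone, EOMES (0.00424), FOXA2 (0.00636) and FGF8 (0.01) passed by limma. EOMES also passed by limma after quantile normalization (0.0456) and with group weights (0.0495), and FGF8 with robust moderation (0.0288) and group weights (0.0342). By limma, EOMES did not pass without the trend (0.14), with robust moderation (0.12), without the shKDM1A libraries (0.0552) or with the replicate block (0.176). FOXA2 did not with robust moderation (0.101) or the block (0.38), nor FGF8 after quantile normalization (0.139) or with the block (0.0832). With 1 library left out, the log2 change was 4.98 to 6.73 for EOMES, 5.46 to 7.68 for FOXA2 and 4.21 to 6.62 for FGF8. The other members were HHEX with 240 and 137 against 96 and 103, KDR with 6746 and 6647 against 5420 and 4612, and PDGFRA with 104 and 40 against 108 and 99, none past the test.

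Among genes of the WNT pathway, calls were in both directions. Of 46 members of the pathway list, 5 rose and 2 fell (15.2%), and the median log2 change was 0.16. WNT3, the ligand that acts upstream of the primitive streak, rose from 32 and 38 to 562 and 210 (log2 change 3.26, SE 0.62, limma adjusted p 0.0222), and no other library exceeded 42. SP8, a zinc finger factor of the SP family, had 475 and 473 against 119 and 120 (1.98, SE 0.21, limma adjusted p 0.00179), and it was stable. LEF1, the transcription factor that carries the WNT signal to DNA, rose from 51 and 66 to 168 and 202 (1.65, limma adjusted p 0.0231). For WNT3, SP8 and LEF1, both shSMARCA4 libraries lay above the 8 others. DACT1, an intracellular modulator of the pathway, rose by 2.27 and the receptor ROR2 by 1.18. SFRP1, which encodes a secreted WNT inhibitor, fell from 11638 and 13161 to 4527 and 4750 (log2 change -1.42, limma adjusted p 0.00886), and the receptor gene FZD2 fell from 780 and 755 to 333 and 300 (-1.28). FZD2 was lower still in other knockdown libraries, which held 38 to 422. Of the 7 calls, 2 (without shSMARCA4 replicate 1), 3 (without shSMARCA4 replicate 2), 1 (without shLUC replicate 1) and 1 (without shLUC replicate 2) were kept.

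SP5, a direct target of WNT signalling, had 592 and 273 after knockdown, 2 in both controls and 1 to 3 in the other libraries, the widest separation of the list. Its log2 change of 7.07 (SE 2.14) did not pass (limma adjusted p 0.12), but passed with a pseudocount of 8 (limma adjusted p 0.00358). It also passed by limma without the trend (0.000263), with robust moderation (0.0204), without the shKDM1A libraries (0.0215) and in the fit of 4 libraries (0.0022). It did not pass by limma after quantile normalization (0.136), after centring on the gene median (0.106), with group weights (0.0671) or with the replicate block (0.153). With 1 library left out, its log2 change was 6.51 to 7.63. The promoters of MIXL1 and SP5 are shown as examples of genes that were near 0 in every other library. The sequences are the 250 bases before the RefSeq start (GRCh38.p14, chr1:226223414-226223663, plus strand, and chr2:170715087-170715336, plus strand). Capitals mark matches on either strand to the FOXH1 motif TGTNNATT, the factor that brings SMAD proteins to DNA, and to the LEF/TCF motif CTTTGA.
MIXL1: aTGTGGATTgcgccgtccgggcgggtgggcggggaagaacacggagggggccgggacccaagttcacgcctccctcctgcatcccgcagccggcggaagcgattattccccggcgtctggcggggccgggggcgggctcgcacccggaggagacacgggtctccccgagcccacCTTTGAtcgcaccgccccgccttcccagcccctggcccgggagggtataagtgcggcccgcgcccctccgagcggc
SP5: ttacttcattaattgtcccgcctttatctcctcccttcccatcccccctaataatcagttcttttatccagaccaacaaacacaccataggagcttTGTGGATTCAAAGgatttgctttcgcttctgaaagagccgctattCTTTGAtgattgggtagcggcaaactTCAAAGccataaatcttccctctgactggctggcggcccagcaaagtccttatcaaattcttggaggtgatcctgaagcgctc

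The MIXL1 window held 1 match to each motif, and the SP5 window held a FOXH1 match that overlaps the first of 3 LEF/TCF matches. Over the 10495 promoters that could be matched to genes of the table (76%), 4.95% held the FOXH1 letters and 7.48% the LEF/TCF letters. In the mesendoderm list, MIXL1 was the 1 gene of 5 with a promoter that held either motif. Of 33 WNT list promoters, 3 held the FOXH1 letters and 4 the LEF/TCF letters. Of 20 Nodal list promoters, 2 held the FOXH1 letters (GDF3 and CER1) and 1 the LEF/TCF letters (GDF3). A match is a description of the sequence and not evidence of binding.

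**Figure D2:**
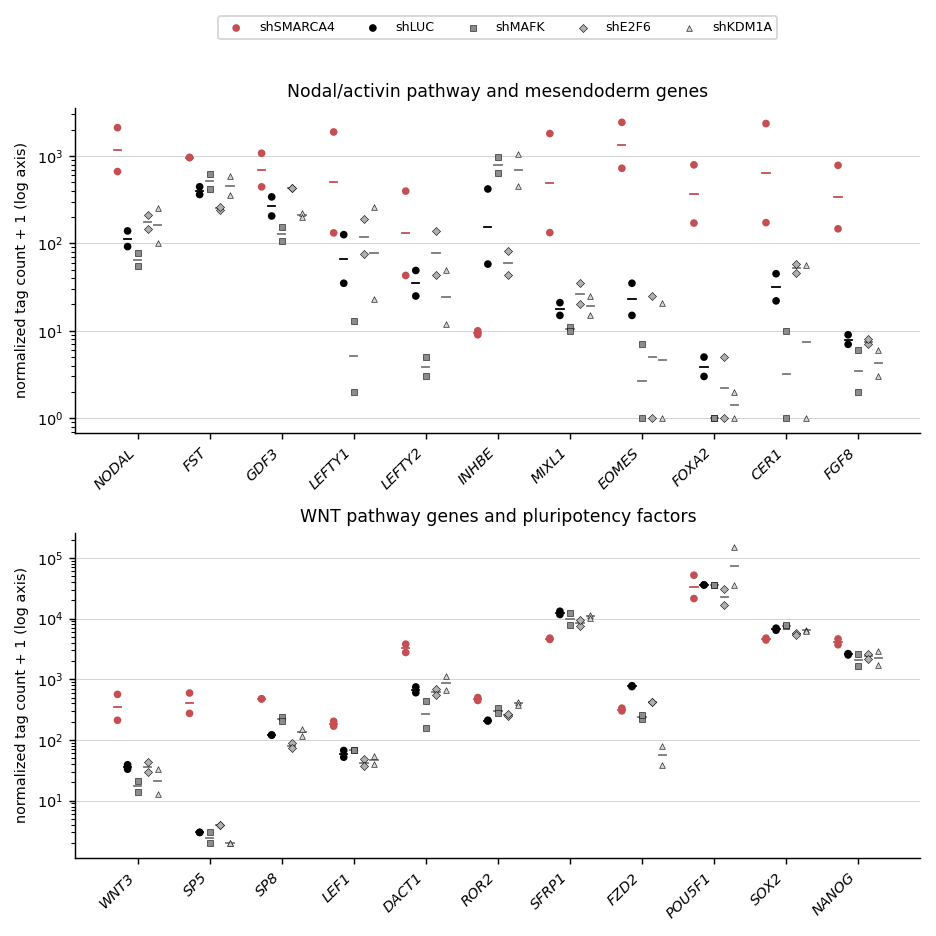
Normalized tag count plus 1 on a log axis in each of the 10 libraries, for Nodal pathway and mesendoderm genes (top) and WNT genes with 3 pluripotency factors (bottom). Points are libraries, coloured and shaped by group, and short lines are the mean on the log scale. NODAL, MIXL1, EOMES, FOXA2, FGF8, WNT3 and SP5 have both shSMARCA4 libraries above the others, and the values of POU5F1 in shSMARCA4 enclose the controls.

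Calls in other signalling pathways were also in both directions. In the FGF pathway, 1 of 28 members rose and 2 fell (10.7%). IL17RD, a feedback inhibitor of FGF signalling, rose from 1976 and 1998 to 7576 and 5420 (log2 change 1.69, limma adjusted p 0.0264), and the receptor gene FGFR3 fell from 336 and 424 to 104 in both libraries (-1.85, limma adjusted p 0.0259). None of the 3 calls was kept with any 1 of the 4 libraries left out. In the Notch pathway, 1 of 25 members rose and 3 fell (16%). LFNG, a glycosyltransferase that tunes Notch receptors, fell from 528 and 510 to 101 and 113 (-2.27, limma adjusted p 0.000664) and was stable. The ligand gene DLL3 fell by 1.92 and the Notch-binding surface protein gene DNER by 1.51. In the retinoid list, 1 of 15 members rose and 2 fell (20%). DHRS3, which turns retinaldehyde back into retinol, fell from 158 and 154 to 42 and 39 (-1.92, limma adjusted p 0.00382), and CRABP2, a retinoic acid carrier, from 1681 and 1815 to 706 and 902 (-1.13, limma adjusted p 0.0175). RARA, a retinoic acid receptor, rose from 138 and 126 to 318 and 371 (1.37, limma adjusted p 0.0424). Of these 3 calls, 1 was kept in each fit that left out a library except the one without shLUC replicate 2, which kept none. None of the 12 hedgehog pathway genes passed by limma, and 1 had an unadjusted p under 0.05.

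The calls in the actin cytoskeleton list were falls. Of its 27 genes, many of them targets of the serum response factor (SRF), 4 fell and none rose (14.8%), and the median log2 change was -0.25. In the list, 18 log2 changes were negative and 9 positive. GAS2L1, a cytoskeletal gene outside the list, rose (2.62). TPM1, which encodes a tropomyosin that coats actin filaments, held 1228 and 1118 normalized tag counts after knockdown, 5706 and 6746 in the controls and at least 4646 elsewhere. It fell by 2.40 on the log2 scale (SE 0.18, limma adjusted p 0.000564) and was stable. ACTA1, skeletal muscle actin, fell from 286 and 226 to 42 and 26 (-2.91, limma adjusted p 0.00594), and ACTG2, smooth muscle gamma actin, from 118 and 94 to 25 and 12 (-2.53, limma adjusted p 0.0105). MYL9, a myosin light chain, fell from 1406 and 1576 to 480 and 678 (-1.38, limma adjusted p 0.022), and shKDM1A, with a lowest value of 584, overlapped with it. ACTB, which encodes beta actin, had 148866 and 61943 against 148866 in both controls, which are neighbouring steps at the top of the table (-0.63, limma adjusted p 0.543). Of the 4 calls, 3 were kept without shSMARCA4 replicate 1 and 1 (TPM1) in each of the other 3 fits.

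The promoters of ACTA1 and ACTG2 carry the CArG box, the element that SRF binds, and are printed as examples from the 4 genes that fell. They are the 250 bases before the RefSeq start (GRCh38.p14, chr1:229434095-229434344, minus strand, and chr2:73892758-73893007, plus strand), with CArG boxes in capitals.
ACTA1: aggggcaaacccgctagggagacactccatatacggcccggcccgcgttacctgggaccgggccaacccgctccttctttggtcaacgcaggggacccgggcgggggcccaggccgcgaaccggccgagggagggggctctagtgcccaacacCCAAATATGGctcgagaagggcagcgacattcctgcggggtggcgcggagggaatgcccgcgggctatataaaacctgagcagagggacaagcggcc
ACTG2: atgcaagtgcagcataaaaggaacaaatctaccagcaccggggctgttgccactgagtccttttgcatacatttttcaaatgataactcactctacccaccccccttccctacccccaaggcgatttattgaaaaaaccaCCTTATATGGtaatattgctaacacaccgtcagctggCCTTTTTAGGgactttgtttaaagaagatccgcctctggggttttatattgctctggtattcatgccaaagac

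ACTA1 had 1 box and ACTG2 had 2 in this window. Over all matched promoters 1.03% held a CArG box, and 7 of the 23 actin list genes with a promoter did (30.4%). The other 5 were ACTG1, CNN2, TPM4, FLNA and FHL2, none of which passed the test. TPM1 and MYL9, which also fell, were not among the 7.

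The Hippo pathway list, which holds targets of the coactivators YAP and TAZ, had falls and 1 rise. Of 26 members, 3 fell and 1 rose (15.4%), with a median log2 change of 0.03. CYR61 had 408 and 334 against 678 and 978 (-1.14, limma adjusted p 0.0302) and CTGF 572 and 674 against 1266 and 1458 (-1.13, limma adjusted p 0.0275), both secreted matricellular proteins and classic YAP targets. AJUBA, a LIM protein at cell junctions, fell by 1.16, and AMOTL1, an angiomotin that binds YAP, rose from 1225 and 1178 to 3394 and 2726 (1.34, limma adjusted p 0.0105). The AMOTL1 call was kept without shSMARCA4 replicate 2, and none of the 4 was kept in the other 3 fits.

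The extracellular matrix list had calls in both directions. Of 82 collagen, protease and matrix genes, 6 rose and 13 fell (23.2%), with a median log2 change of -0.09. COL9A3, a cartilage collagen chain, fell from 824 and 1145 to 141 and 83 (-3.15, limma adjusted p 0.0086), and COL1A1, the chain of type I collagen, from 2555 and 3226 to 311 and 629 (-2.70, limma adjusted p 0.0177). MMP24, a membrane-bound matrix metalloproteinase, fell from 557 and 430 to 66 and 99 (-2.58, limma adjusted p 0.0017), and ADAMTS4, an aggrecanase, fell by 1.95. Both were stable. COL6A3 fell from 334 and 345 to 70 and 97 (-2.03, limma adjusted p 0.00469), while COL6A1, another chain of the same type VI collagen, rose from 7578 and 8497 to 23459 and 15764 (1.26, limma adjusted p 0.0099). TNC, which encodes tenascin C, rose from 164 and 180 to 724 and 462 (1.75, limma adjusted p 0.0082), and the protease gene ADAMTS6 rose by 1.74. Of the 19 calls, 9 were kept without shSMARCA4 replicate 1, 7 without shSMARCA4 replicate 2, and 3 without each of the shLUC libraries in turn.

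Genes of mesenchymal cells overlapped with that list. All 9 fibroblast marker genes in the table (of 15 listed) had negative log2 changes, 4 of them past the test (COL1A1, COL6A3, PDGFRB and S100A4), with a median of -0.84. Their summed level was 4781 and 4950 in shSMARCA4, 8410 and 9773 in shLUC and 9265 to 25008 elsewhere, and none of the 9 was at 0 in all 4 libraries. PDGFRB, a growth factor receptor, had 54 and 75 against 228 and 218 (-1.79, limma adjusted p 0.00304) and was stable. In the list of epithelial to mesenchymal transition genes, 3 of 15 rose and 3 fell (40%). VIM, which encodes the intermediate filament vimentin, fell from 3429 and 3110 to 1046 and 876 (-1.77, SE 0.16, limma adjusted p 0.0011) and was stable. SPARC, a collagen-binding protein, fell by 1.26, while TNC, the integrin subunit gene ITGA5 (1.01) and the cadherin gene CDH11 (0.97) rose. The part of fibroblast-like cells in the matrix and actin results was not tested.

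At the cell surface, SDC2, a heparan sulfate proteoglycan, fell from 2295 and 2302 to 695 and 652 (-1.77, limma adjusted p 0.00218) and was stable. LAMC3, a laminin chain, rose from 224 and 213 to 502 and 537 (1.25, limma adjusted p 0.00207), and was also stable, but its values in other knockdown libraries reached 654. Among 77 cadherins, 2 rose and 2 fell (5.19%), close to the share of all rows. Protocadherins were on both sides: PCDH18 fell from 1184 and 1080 to 352 and 294 (-1.81, stable), and PCDH10 rose from 392 and 292 to 2011 and 806 (1.91, but 1.25 without shSMARCA4 replicate 1).

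Among genes of antigen presentation and interferon response, 4 fell. The list had 33 members in the table, of which none rose (12.1% passed), and the median log2 change was -0.09. LGALS3BP, a secreted glycoprotein induced by interferon (ENSG00000108679, chromosome 17, 78971238 to 78980109, minus strand), held 38 and 66 after knockdown, 1071 and 1098 in the controls and 662 to 948 elsewhere. It fell by 4.41 on the log2 scale (SE 0.24, limma adjusted p 0.000108), to 4.79% of the control mean. BST2, or tetherin, which holds budding viruses at the cell surface (chromosome 19), had 106 and 96 against 614 and 710 (-2.70, SE 0.25, limma adjusted p 0.0011). Both genes were stable. B2M, the light chain of MHC class I, fell from 1770 and 1697 to 844 and 540 (-1.36, limma adjusted p 0.0268), and HLA-B, a heavy chain, from 1885 and 2006 to 940 and 658 (-1.30, limma adjusted p 0.0196). Both passed without shSMARCA4 replicate 1 and failed in the other 3 fits.

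The rest of that list did not follow as a block. The IFITM genes, which block entry of viruses and are near-identical paralogs, had lower values that did not pass: IFITM1 -1.09, IFITM2 -1.45 and IFITM3 -1.25 on the log2 scale (limma adjusted p 0.332, 0.185 and 0.231). ISG15, a classic interferon-stimulated gene, was not lower in either library, with 199 and 247 against 191 and 170. IFIT1 had 95 and 62 against 119 and 113 (-0.59, limma adjusted p 0.322).

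The promoters of LGALS3BP and BST2 are given because these genes had the largest falls of the list. They are the 250 bases before the RefSeq start (GRCh38.p14, chr17:78979924-78980173 and chr19:17405631-17405880, both minus strand). Capitals mark the motif of interferon regulatory factors on either strand, spelled TTTC, any 2 bases, TTTC.
LGALS3BP: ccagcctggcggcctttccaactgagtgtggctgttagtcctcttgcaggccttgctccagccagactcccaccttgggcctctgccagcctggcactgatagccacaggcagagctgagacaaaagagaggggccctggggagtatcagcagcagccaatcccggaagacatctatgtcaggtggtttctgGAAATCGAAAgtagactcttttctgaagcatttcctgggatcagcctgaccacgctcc
BST2: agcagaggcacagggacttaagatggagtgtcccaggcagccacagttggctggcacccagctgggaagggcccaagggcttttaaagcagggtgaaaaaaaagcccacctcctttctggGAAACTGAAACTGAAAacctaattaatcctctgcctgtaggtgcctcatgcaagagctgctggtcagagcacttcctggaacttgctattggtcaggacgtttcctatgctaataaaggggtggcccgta

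LGALS3BP held 1 match and BST2 held 2 that overlap. The motif was in 2.32% of all matched promoters and in 14 of the 26 promoters of the list (53.8%), among them those of ISG15, IFIT1 and B2M, so the letters were present in genes that fell and in genes that did not pass.

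**Figure D3:**
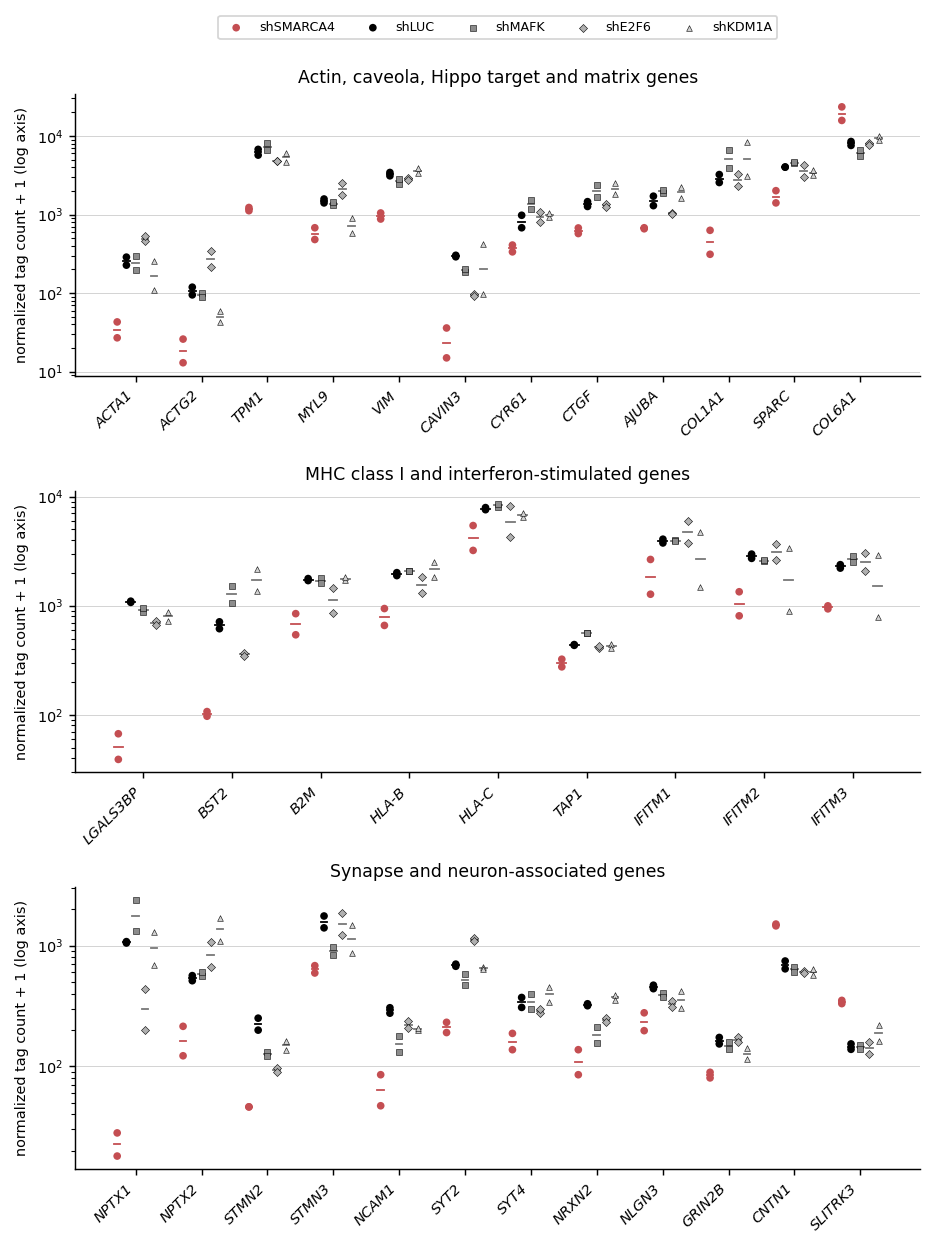
Normalized tag count plus 1 on a log axis in each of the 10 libraries, for cytoskeleton and matrix genes (top), MHC class I and interferon-stimulated genes (middle) and synapse genes (bottom). Points are libraries and short lines the mean on the log scale. TPM1, LGALS3BP, BST2 and NPTX1 have both shSMARCA4 libraries below all others, and COL6A1, CNTN1 and SLITRK3 are higher.

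Genes of neurons made up the longest list of falls beside the matrix genes. Of 82 synapse and neuron-associated genes, 13 fell and 2 rose (18.3%), and the median log2 change was -0.24. NPTX1, a secreted neuronal pentraxin (ENSG00000171246, chromosome 17, 80467148 to 80477843, minus strand), held 17 and 27 after knockdown, 1076 and 1048 in the controls and 198 to 2374 elsewhere, and it had the largest fall among genes that passed with a control mean of at least 50 (-5.57). Its paralog NPTX2 fell from 562 and 510 to 213 and 121 (-1.73, limma adjusted p 0.0202). STMN2, a tubulin-binding protein of growth cones, had 45 in both libraries against 198 and 249 (-2.28, limma adjusted p 0.00127), and SYT2, a calcium sensor for vesicle release, 189 and 230 against 700 and 672 (-1.71, limma adjusted p 0.00124). NPTX1, STMN2 and SYT2 were stable. The adhesion protein genes NCAM1 (-2.20) and NRXN2 (-1.58), the growth cone gene GAP43 (-1.35), and the receptor genes GRIN2B (-0.95) and GRIK5 (-0.87) also fell. CNTN1, a neuronal adhesion protein, rose from 640 and 743 to 1505 and 1454 (1.10, limma adjusted p 0.0054), and SLITRK3 rose by 1.23. Of the 15 calls, 7 were kept without each shSMARCA4 library in turn and 4 without each shLUC library in turn.

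Neural transcription factors changed in opposite directions. The neural marker list had 13 of 35 genes in the table, with a summed level of 17120 and 14332 in shSMARCA4, 20654 and 24075 in shLUC and 14391 to 25840 elsewhere. Of the 13, 1 rose and 2 fell (23.1%). In this list 4 log2 changes were positive and 9 negative, and the median was -0.67. IRX2, a homeobox gene, fell from 501 and 728 to 46 and 62 (-3.47, SE 0.31, limma adjusted p 0.000971) and was stable. POU3F1, a POU factor of early neural cells, fell from 781 and 982 to 275 and 494 (-1.25, but -0.82 without shSMARCA4 replicate 1 and -1.67 without shSMARCA4 replicate 2). ZIC1, a zinc finger factor of the neural plate, rose from 95 and 149 to 462 and 1004 (2.51, limma adjusted p 0.0147). FOXB1, a forkhead gene of the neural tube that is not on the neural list, rose from 187 and 182 to 942 and 1338 (2.60, SE 0.25, limma adjusted p 0.00124, stable). The ZIC1 and FOXB1 values of both libraries were above all 8 others. OTX2 had 602 and 326 against 674 and 734 (-0.67, limma adjusted p 0.489).

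Markers of further cell types were few. Of the neural crest list 3 of 15 genes had a row, with a summed level of 1436 and 1402 against 1731 and 1594 in shLUC, within the 1038 to 1905 of the other libraries. The median log2 change of the 3 was -0.13, and 1 passed: NGFR, a neurotrophin receptor, fell from 531 and 566 to 76 and 96 (-2.67, SE 0.20, limma adjusted p 0.000505, stable). Of the trophoblast list 5 of 22 had a row, with a summed level of 1274 and 1576 against 2984 and 3340 in shLUC and 2440 to 4231 elsewhere. KRT7, a keratin, fell from 218 and 296 to 30 and 44 (-2.77, limma adjusted p 0.00463) and GABRP fell by 1.78. Summed germline markers were 1703 and 1743 against 1607 and 1585, and none of the 12 passed by limma, with none at an unadjusted p under 0.05. No marker of these lists was at 0 in all 4 libraries. Of 20 genes of primed pluripotent cells, 1 rose and 1 fell (10%), with a median log2 change of 0.11. SALL3, a zinc finger factor, rose from 903 and 1018 to 2296 and 2474 (1.31, limma adjusted p 0.00249, stable), and THY1, a surface glycoprotein, fell from 8852 and 9056 to 2794 and 3314 (-1.56, limma adjusted p 0.013), a call that was lost with any 1 library left out.

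Channel, transporter and receptor families had shares of 4.56% to 10%. Of 100 ion channel genes, 4 rose and 5 fell (9%). TRPM4, a calcium-activated cation channel, rose from 126 and 108 to 366 and 510 (1.88, limma adjusted p 0.00205), and TRPC4, a related channel, fell from 347 and 289 to 94 and 82 (-1.84, limma adjusted p 0.00325), and both were stable. Of 241 solute carriers, 5 rose and 6 fell (4.56%), near the share of all rows. LPAR6, a receptor for lysophosphatidic acid, rose from 110 and 90 to 546 and 600 (2.51, limma adjusted p 0.00124) and GPRC5C, an orphan receptor, fell by 2.10, and both were stable.

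Growth control genes of the IGF system had falls and no rise. Of 18 IGF genes 5 fell and none rose (27.8% passed), with a median log2 change of -0.46. IGFBP2, a binding protein that holds IGF in the medium, fell from 35716 in both controls to 16619 and 17675 (-1.06, limma adjusted p 0.0127), IGFBP4 from 5028 and 4487 to 1842 and 1326 (-1.60), IGFBPL1 from 1479 and 1704 to 446 and 373 (-1.96), and IGFBP5 from 104 and 100 to 21 and 25 (-2.11). The fifth was the RNA-binding protein gene IGF2BP3 (-0.77). Of the 5 calls, 2 were kept without shSMARCA4 replicate 1, 1 without shLUC replicate 1, and none in the other 2 fits. Of 17 imprinted genes 1 rose and 2 fell (17.6%). MEG3, a maternally expressed noncoding RNA, fell from 388 and 475 to 120 and 106 (-1.92, SE 0.16, limma adjusted p 0.000782), and GRB10, an adaptor that restrains insulin signalling, from 1972 and 2185 to 776 and 858 (-1.35, SE 0.15, limma adjusted p 0.00207). Both were stable. PLAGL1, a zinc finger factor, rose from 66 in both controls to 230 and 215 (1.74, limma adjusted p 0.0156).

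Metabolic and stress programmes had few members past the test. Of 33 sterol synthesis genes, 30 had positive log2 changes, with a median of 0.38, and in 24 both shSMARCA4 libraries were above both controls, beside 25.6% of all rows. Of these, 2 rose past the test. HMGCS1, an early enzyme of the pathway, had 10757 and 6928 against 4340 and 2910 (1.28, limma adjusted p 0.0378), and MVK, mevalonate kinase, 447 and 358 against 184 and 153 (1.25, limma adjusted p 0.0179). MVD, a decarboxylase of the same pathway, had 2555 and 2506 against 1132 and 1120 (1.17, limma adjusted p 0.0606). Neither call was kept with any 1 library left out, and 1 of the other knockdown libraries also reached 2555 for MVD.

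In the p53 target list, 26 of 30 log2 changes were negative, with a median of -0.43, and in 18 both shSMARCA4 libraries were below both controls (25.4% of all rows). None passed by limma, 10 had an unadjusted p under 0.05 (33.3%, beside 16.3% of all rows), and 4 were lower in the fit without the shKDM1A libraries. CDKN1A, the cell cycle inhibitor p21, had 64 and 127 against 235 and 148 (-1.04, limma adjusted p 0.368). Genes of the integrated stress response, which ATF4 drives, had a median of -0.59, with 25 of 26 negative. That median was -0.23 against shLUC replicate 1 and -0.91 against shLUC replicate 2, so its size was set by the choice of control library. SHMT2, a mitochondrial enzyme of serine metabolism, was the 1 member that passed (2022 and 1636 against 3564 and 5172, log2 change -1.24, limma adjusted p 0.0351), and that call was lost with any 1 library left out. CHAC1, a target of ATF4 that degrades glutathione, had 142 and 1436 in the control libraries, against 45 and 98.

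Housekeeping programmes had no calls by limma. Among 93 respiratory chain genes, 42 had both shSMARCA4 libraries below both controls and 7 above (25.4% and 25.6% of all rows), the median log2 change was -0.16, and 2 had an unadjusted p under 0.05 (2.15%, beside 16.3% of all rows). Among 81 ribosomal protein genes the median was -0.09, with 7 at an unadjusted p under 0.05 (8.64%), and among 43 DNA replication genes it was 0.19, with 4 (9.3%), each below the 16.3% of all rows. The median of the 28 mitosis genes was 0.04, with 1. Of the genes for other chromatin proteins, none of 14 DNA methylation and TET genes, 12 PRC2 genes, 24 genes of cohesin and chromosome architecture and 18 other remodeller genes passed, with 0, 1, 3 and 2 at an unadjusted p under 0.05. BMI1, a PRC1 subunit, rose from 156 and 176 to 381 and 363 (1.16, limma adjusted p 0.0159), and TNRC18, a reader of heterochromatin, rose from 72 and 101 to 948 and 942 (3.45, SE 0.34, limma adjusted p 0.00128) and was stable.

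**Figure D4:**
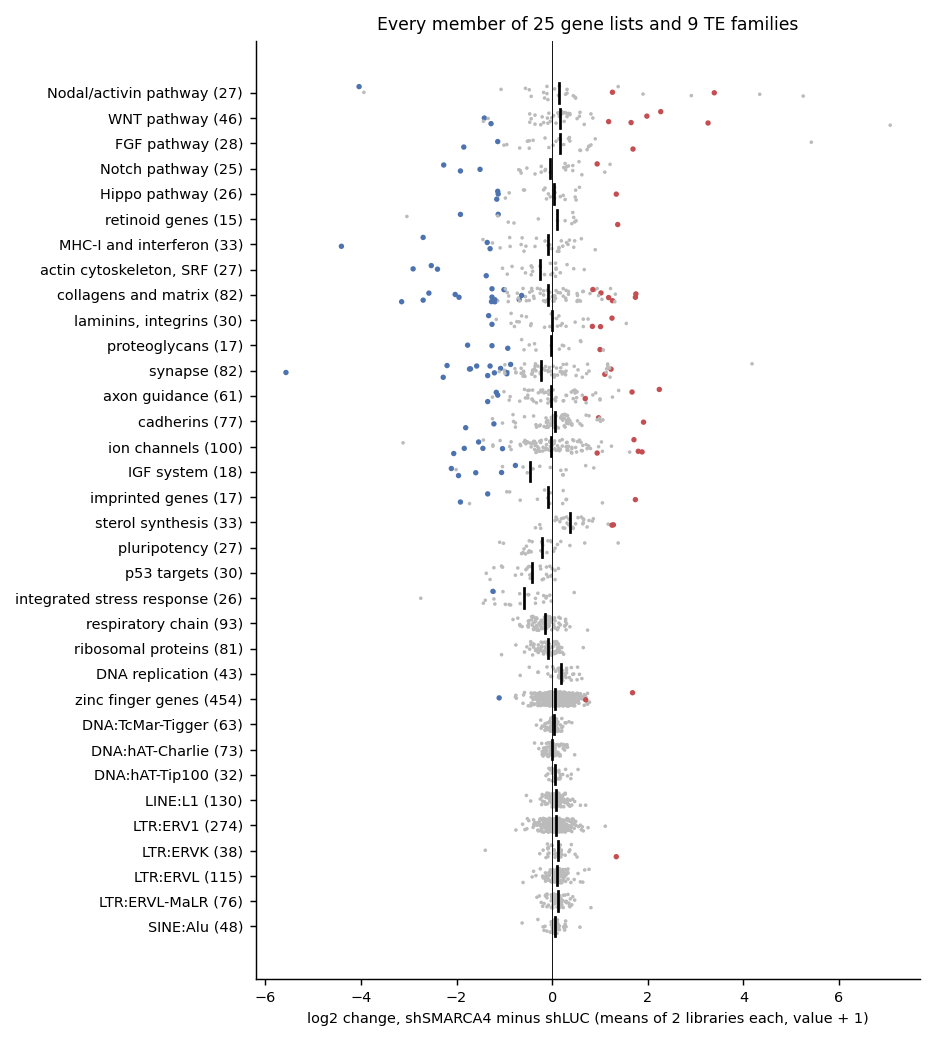
Log2 change in shSMARCA4 against shLUC for every member of 25 gene lists and for 9 TE families, with the number of members in brackets. Points are genes or TE subfamilies, red where higher and blue where lower past the test and grey otherwise, and black lines are medians. The signalling, matrix, synapse and channel lists are wide, the housekeeping and TE rows are narrow, and the sterol median lies right of 0 while the p53 and stress medians lie left of it.

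Of the 12 largest rises and 12 largest falls among genes that passed with a group mean of at least 50, several belong to no list. TMEM54, a membrane protein (74 and 55 to 413 and 452, log2 change 2.74), RIPOR1 (48 and 58 to 275 and 419, 2.66), KANK4, a scaffold protein (9 and 14 to 86 and 91, 2.87) and GAS2L1, which links actin and microtubules (76 and 81 to 526 and 450, 2.62), rose. The host transcript MIR124-2HG also rose (24 and 36 to 138 and 162, 2.31). ARHGAP23 fell from 1242 and 1631 to 59 and 110 (-4.13), CUZD1 from 640 and 1158 to 56 and 58 (-3.89), CAVIN3, a coat protein of caveolae, from 289 and 302 to 35 and 14 (-3.67) and AC089984.1 from 94 and 108 to 8 in both (-3.50). LINC02473 fell from 175 and 136 to 3 and 30 (-3.80, with -2.32 without shSMARCA4 replicate 1). TMEM54, RIPOR1, ARHGAP23 and CUZD1 were stable. Of 136 genes named as long intergenic noncoding RNAs, 2 rose and 7 fell (6.62%).

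Transposable elements, which the study asked about as anchors of chromatin folding, had few calls as transcripts. Of 973 subfamilies, 1 rose and none fell past the test (0.103%, beside 4.18% of all rows), and 26 had an unadjusted p under 0.05 (2.67%, beside 16.3%). The share of TE rows in the total was 14.4% and 15.8% in shSMARCA4 and 14.5% in both controls. The subfamily that rose was HERVK11-int, the internal part of an ERVK provirus, with 2910 and 2216 against 1176 and 858 and 605 to 1134 elsewhere (log2 change 1.34, SE 0.31, limma adjusted p 0.0448). Both shSMARCA4 libraries were above all others, and the call was lost in each fit that left out 1 library (limma adjusted p 0.126 to 0.319). The subfamilies with the next smallest p were L1M3c (-0.54, limma adjusted p 0.103), LTR1C3 (1.11, limma adjusted p 0.11), L1P2 (0.59, limma adjusted p 0.119) and LTR49-int (-0.62, limma adjusted p 0.12). HERVK-int, another ERVK provirus, had 1166 and 1764 against 3780 in both controls (-1.40, limma adjusted p 0.169). The medians of the 9 TE families with enough rows lay between 0.00 and 0.12. HERVH-int, the endogenous retrovirus most active in human pluripotent cells, stood at the highest value of the table, 148866, in all 10 libraries, so a change in it could not be seen, and LTR7, its promoter, had 61939 and 148866 against 61939 in both controls.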

How the data were processed

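The deposited values are scores: whole numbers that the authors normalized, read here as normalized tag counts. The submitters' processing notes name STAR, STARsolo and hg38, without their roles, and the normalization is not given in the sources used here. Libraries were NEB Next Ultra, from RNA with an integrity number of at least 8.0, per the labels. Columns of no sample numbered 0. All 13808 gene identifiers were in GENCODE release 29, the source of gene positions. How reads were shared among paralogs, strands, TE copies and host genes is not given in the sources used here.

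Values were tested as log2(value + 1) by limma (version 3.58.1, under R 4.3.3). The 10 libraries shared a single linear model with 5 residual degrees of freedom, empirical Bayes moderation with a trend, and two-sided p-values. P-values were adjusted by Benjamini-Hochberg over all 14785 rows, with a threshold of 0.05. A minimum mean of 10 removed 0 rows. On simulated data (20 simulations with 200 changed rows), this comparison recovered 22.8% of changes of 1 and 91.6% of changes of 2 on the log2 scale. The changes were placed outside the rows of lowest mean level, and the simulated spread did not depend on the level. Recovery in low rows, such as that of SP5, was therefore not measured. Tables and plots used Python 3.11.15, pandas 2.3.3 and matplotlib 3.10.9.

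Named genes were SMARCA4 and SMARCA2, the 12 largest rises and 12 largest falls that passed (their larger group mean being 50 or more, without overlap), up to 6 changed members of each list (all where there were at most 8), and the TE rows that passed or had the 5 smallest p. SP5, POU5F1 and other members named with values that did not pass were picked by their place in a list. Some genes that the rule names are not reported here. The genes, lists and tests were chosen with earlier results of these data known. Alternatives covered the pseudocount, a filter, normalization, the variance model, the libraries fitted, the replicate block and leaving out each library.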

Additional observations from a re-analysis of the deposited data

How the results depend on the processing

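The 618 rows that passed became 1162 without both shKDM1A libraries and 1306 with group weights, and both counts included all 618. They became 917 in a fit of only the 4 libraries (579 of the 618 kept) and 89 to 247 with 1 library left out, where the lone sample of an arm is assumed to vary like the other groups. The share of calls that were higher was 40% in the full fit and 23.6% to 32.6% with 1 library left out. Calls that also passed against the other 3 knockdowns numbered 956 and 892 under the first 2 alternatives, in place of 546, and 84 to 224 with 1 library left out. Calls on a list numbered 297 without both shKDM1A libraries, 315 with group weights and 253 in the fit of 4 libraries, in place of 165, and 31 to 74 with 1 library left out. TE calls numbered 5 without both shKDM1A libraries, 7 with group weights, 2 in the fit of 4 libraries, 0 without the variance trend and 0 with any 1 library left out, in place of 1. The causes were not tested. A pseudocount of 8 (634), a minimum mean of 100 (563), quantile normalization (605), centring (618), no trend (606) and robust moderation (630) kept the count of calls within 1.5 times.

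Replicate numbers were not treated as pairs in the main fit. Deviations of libraries with the same number correlated between -0.05 and 0.337 over the pairs of groups. The highest value was between shE2F6 and shSMARCA4, and that between shSMARCA4 and shLUC was -0.023. Whether libraries with the same number shared a batch was not tested. With the replicate block 643 rows passed (563 of the 618), 572 of them also against the other knockdowns, 174 on a list and 0 TE rows.

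Of 167 genes and TE rows named or listed, between 83 and 112 lost their call with 1 library left out, 12 without the trend and 11 with the block. The log2 change of POU5F1 turned from -0.11 to 0.53 without shSMARCA4 replicate 2 and was -0.74 without shSMARCA4 replicate 1. Because the read depth is unknown, no limit for low rows is given.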

Other observations

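Further groups were put together after the values had been seen, so they are given as counts and values only. Over all rows, 1.67% were higher and 2.51% lower past the test. Of 15 restriction factors, genes whose products block viruses inside the cell, 6 fell and 1 rose, with a median log2 change of -0.88. TRIM22, a RING finger protein, held 128 and 126 normalized tag counts after knockdown, beside 975 and 916 in the controls (-2.89, limma adjusted p 0.000782). SAMHD1, which depletes nucleotides, had 868 and 978 against 1680 and 1650 (-0.85, limma adjusted p 0.022). BST2, TRIM5 (-0.81), APOBEC3B (-0.99) and TRIM56 (-1.01) also fell. With 1 library left out, the log2 change was -0.96 to -0.66 for TRIM5, -1.15 to -0.82 for APOBEC3B and -1.35 to -0.67 for TRIM56. TRIM5, with 414 and 336 after knockdown, overlapped with the other knockdown libraries, which held 381 to 618. ZC3HAV1, the zinc finger antiviral protein, rose from 1323 and 1240 to 1920 and 2191 (0.68, limma adjusted p 0.044). MX2 and SERINC5 did not pass. Of the genes that passed, TRIM22 and BST2 were stable, and SAMHD1, TRIM5, APOBEC3B, TRIM56 and ZC3HAV1 were not.

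Muscle-associated genes, most of them of the sarcomere or its membrane, were a second such group. The group also holds PYGM (-1.74) and CKB (-0.82, not past the test), which encode metabolic enzymes. Of 14 in the table, 8 fell and 2 rose, with a median log2 change of -1.12. TNNT2, cardiac troponin T, had 5 and 12 against 86 and 100 (-3.41, limma adjusted p 0.00382), and DYSF, a membrane repair protein, 136 and 127 against 741 and 674 (-2.42, limma adjusted p 0.00712). ACTN3, an alpha actinin, had 261 and 413 against 1326 and 1331 (-2.01, limma adjusted p 0.00519), and OBSL1, a cytoskeletal adaptor, 3396 and 3008 against 8088 in both controls (-1.34, limma adjusted p 0.0054). RYR2, a calcium release channel, rose from 360 and 334 to 704 and 699 (1.01, limma adjusted p 0.012). TTN, the largest sarcomere protein, had 880 and 958 against 988 and 861. Of 4 genes of caveolae, CAVIN1 (542 and 572 against 1374 and 1246, log2 change -1.23) and CAVIN3 fell, while CAV1 (0.62) and EHD2 (-0.12) did not pass. A last such group, 52 genes named ARHGAP or ARHGEF, went mostly the other way: 5 rose and 2 fell, with a median log2 change of 0.17.

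TEK, an endothelial receptor that belongs to no list here, had 60 and 54 against 366 and 313 in the controls and 278 to 510 elsewhere (-2.55, SE 0.16, limma adjusted p 0.000214).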
